A study of Mus musculus with 12 samples.

Results

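Retinoic acid is the active form of vitamin A, and 9 genes of its supply, synthesis, disposal and sensing were followed in the embryonic mouse heart: Rbp4, Stra6, Crabp1, Crabp2, Aldh1a2, Aldh1a1, Dhrs3, Cyp26b1 and Rarb. They were picked by symbol from the 45664 rows of a table of raw read counts per gene, and all 9 had a row. Of these, 8 passed the filter on low counts and were among the 20691 genes tested. Stra6 did not pass and is described by its counts.

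The libraries were bulk RNA of whole hearts, 1 per embryo. The groups were KO hearts at E14.5 (E for embryonic day), WT hearts at E14.5, KO hearts at E13.5 and WT hearts at E13.5, with 3 embryos in each. KO stands for a disruption of Ino80, the ATPase of a chromatin remodelling complex, in endothelium by way of Tie2, a gene of endothelial and endocardial cells and of part of the blood lineage. The labels give neither the strain nor the deleted stretch of Ino80, and none of the groups carries a further allele or agent that the labels name. All 6 E13.5 embryos came from litter 1, and the E14.5 embryos came from litters 2 and 3, each of which held both genotypes, so stage and litter cannot be told apart.

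In the embryo, retinol reaches tissues on the carrier that Rbp4 encodes and can enter cells through the receptor encoded by Stra6. Inside the cell retinol is oxidised to retinaldehyde, which DHRS3 can reduce back to retinol and which the ALDH1A enzymes oxidise irreversibly to retinoic acid. Retinoic acid is carried by CRABP1 and CRABP2, removed by CYP26 enzymes, and sensed by nuclear receptors such as RARB that bind direct repeats of a short half-site in DNA. In the mouse heart ALDH1A2 is the main synthesising enzyme and is made by the epicardium, the outer cell layer of the organ.

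The promoter of Rarb is shown first because it was the one member promoter in which a receptor repeat was found, and because Rarb is a textbook target of its own ligand. RefSeq promoter windows on GRCm38.p6, from 250 bases before to 50 after a transcript start, were at hand for 8 of the 9 genes, 15 windows in all, with none for Crabp2. Both strands were searched for direct repeats, spaced by 1, 2 or 5 bases, of half-sites that read AGGTCA or AGTTCA or GGGTCA or GGTTCA. The bases upstream of the Rarb start, at chr14:16575477-16575726 on the minus strand, are given with the half-sites in capitals.
Rarb promoter: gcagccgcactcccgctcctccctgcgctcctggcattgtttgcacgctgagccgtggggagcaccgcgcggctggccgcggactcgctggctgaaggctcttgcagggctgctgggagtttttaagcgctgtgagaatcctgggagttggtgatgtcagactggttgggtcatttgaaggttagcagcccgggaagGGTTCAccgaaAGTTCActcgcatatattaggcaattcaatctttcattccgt

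The repeat in this window has a spacer of 5 bases and runs from position -53 to -37 relative to the start. The same spacing was found in 0.0974% of all 32851 windows, and any of the 3 spacings in 0.588%. Outside the 9 genes, the windows of 63 genes from 5 wider retinoid lists held a match in 2 genes. One was Cyp26a1, which encodes another retinoic acid hydroxylase, in the window chr19:37697558-37697857 (plus strand), at positions -32 to -16 on the reverse strand. The other was Bco1, which encodes the enzyme that cleaves beta-carotene, in the window chr8:117095615-117095914 (plus strand). Its match had a spacer of 1 base and lay at positions -56 to -44 on the reverse strand. Both are set beside the Rarb repeat to show how alike the repeats with 5-base spacers are.
Rarb repeat: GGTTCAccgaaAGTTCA
Cyp26a1 repeat: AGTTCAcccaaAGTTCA
Bco1 repeat: AGGTCAaAGGTCA
A match is a description of these letters, and binding was not measured here.

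Libraries held 46556032 to 182545647 counts, and within each group the counts of any pair of libraries differed beyond sampling noise. Levels are given as CPM, counts per 1000000 counts of tested genes after scaling by the trimmed mean of M-values (TMM). Ino80 itself stood at 27.0, 29.5 and 31.9 CPM in E14.5 KO hearts, against 30.8, 31.4 and 33.9 CPM in E14.5 WT hearts, which overlapped. It stood at 29.6 CPM in each of the E13.5 KO hearts, against 30.7, 33.8 and 36.6 CPM in E13.5 WT hearts, where no KO heart reached the lowest WT heart. At E13.5 the groups did not overlap for 19.6% of all tested genes in either direction. Averaged over the stages the Ino80 difference was -0.15 ± 0.06 on the log2 scale (SE) and did not pass the test (adjusted p = 0.22, edgeR), and whole-heart counts over the whole gene check a deletion in 1 cell type only weakly. Cardiomyocyte, epicardial, endothelial and endocardial markers were all above 0 in the 12 libraries. Some KO hearts stood apart in blood cell markers: summed macrophage markers were lowest in E14.5 KO replicate 2 (21.9 CPM) and E13.5 KO replicate 5 (12.7 CPM), and erythroid markers were highest in E14.5 KO replicate 1 (41900 CPM, against 4790 to 18400 CPM in the other 11). At E13.5 the macrophage sum was lower in all KO hearts (12.7 to 64.5 CPM) than in all WT hearts (92 to 96.2 CPM). All 12 macrophage markers had a log2 fold change below 0 there (median -1.66), as did 10266 of the 20691 tested genes, and none passed (edgeR). At E14.5 the macrophage sums of KO hearts (21.9 to 106 CPM) and WT hearts (74.8 to 84.8 CPM) overlapped. In bulk samples fewer cells of a type and less RNA per cell cannot be told apart.

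None of the 8 tested genes passed the threshold of adjusted p under 0.05 in any of the 7 comparisons (edgeR quasi-likelihood F-test, two-sided, Benjamini-Hochberg over all 20691 genes). Over all genes, 1.42% were called for KO against WT averaged over the stages, 0.222% at E14.5 and 0.106% at E13.5. The shares were 3.74% for E14.5 against E13.5 in KO, 4.04% for the same comparison in WT, 10.1% for any difference among the 4 groups, and 0% for the difference between the KO effects of the stages. With 8 genes, a count of 0 is what such shares would leave in most comparisons, so it says little about the 8 as a group. DESeq2 called 0 of the 8 as well. At an unadjusted p under 0.05 stood 2 of the 8 (Aldh1a1 and Rbp4) averaged over the stages, where 14.7% of all genes did, 1 (Dhrs3) at E14.5, where 9.59% did, and 2 (Aldh1a1 and Rbp4) at E13.5, where 10.3% did. The counts were 1 (Dhrs3) for the difference of the KO effects (3.61% of all genes), 1 (Cyp26b1) with stage in KO (20.1%), 1 (Dhrs3) with stage in WT (22.7%), and 1 (Rbp4) for any difference among the groups (27.4%). Between KO and WT the values of the 3 libraries a group did not overlap for 2 of the 8 at E14.5 (12.7% of all genes) and for none at E13.5 (19.6%). The sizes and intervals below therefore carry the description, with standard errors (SE) and 95% confidence intervals from the same fit.

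Rbp4, on chr19:38116629-38125281 (minus strand), encodes the retinol carrier of plasma and is best known from liver. It had 0.339, 0.406 and 0.606 CPM in E14.5 KO hearts, against 0.256, 0.261 and 0.357 CPM in E14.5 WT hearts. It had 0.535, 0.616 and 0.948 CPM in E13.5 KO hearts, against 0.248, 0.313 and 0.609 CPM in E13.5 WT hearts. The KO hearts thus lay mostly above the WT hearts of their stage, with an overlap of 1 library at each stage. Averaged over the stages, the KO level was 1.66 times that of WT (interval 1.09 to 2.54), a log2 fold change of 0.73 ± 0.28 at an unadjusted p of 0.0222 and an adjusted p of 0.244 (edgeR). Rbp4 had a value of 0.47 without E14.5 KO replicate 2 and E13.5 KO replicate 5. By stage, with all libraries, it was 0.61 at E14.5 (adjusted p = 0.731, edgeR) and 0.85 at E13.5 (adjusted p = 0.474, edgeR). The E14.5 value was 0.35 without E14.5 KO replicate 2 alone. The counts behind it were small, from 12 to 112 per library.

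Because Rbp4 is made in quantity by liver, the summed level of 15 liver markers is given beside it. It ranged from 2.28 to 5.40 CPM in E14.5 KO hearts and 2.80 to 7.08 CPM in E14.5 WT hearts, and from 1.72 to 2.19 CPM in E13.5 KO hearts and 2.95 to 3.53 CPM in E13.5 WT hearts. Of these markers 7 were tested, and all 7 had an averaged log2 fold change below 0 (median -0.50), as did 10485 of the 20691 tested genes. None of the 7 passed, Apoc3 had no count in any library and Hnf4a had 1 count in all. Over the 12 libraries Rbp4 and the liver sum had a Pearson r of -0.648 on the log scale, and of -0.237 with the group means removed. These are values of the same libraries and share their scaling, and the markers' part in the Rbp4 difference was not tested.

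Stra6, on chr9:58063788-58153996 (plus strand), encodes the membrane receptor that takes up retinol from its carrier. It had 2, 3 and 5 counts in E14.5 KO hearts, against 0, 0 and 6 in E14.5 WT hearts, and 2, 9 and 10 counts in E13.5 KO hearts, against 2, 8 and 10 in E13.5 WT hearts. The counts overlapped in both pairs of groups. A count of 0 allows up to 0.0641 CPM in E14.5 WT replicate 8 and 0.0487 CPM in replicate 7.2. Summed per group, the level was 0.0469 CPM (95% exact Poisson interval 0.0225 to 0.0862) in E14.5 KO hearts and 0.0370 CPM (0.0136 to 0.0806) in E14.5 WT hearts. It was 0.0633 CPM (0.0392 to 0.0968) in E13.5 KO hearts and 0.0594 CPM (0.0363 to 0.0918) in E13.5 WT hearts. These intervals cover counting error only, and no difference was detectable at this depth.

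**Figure D1:**
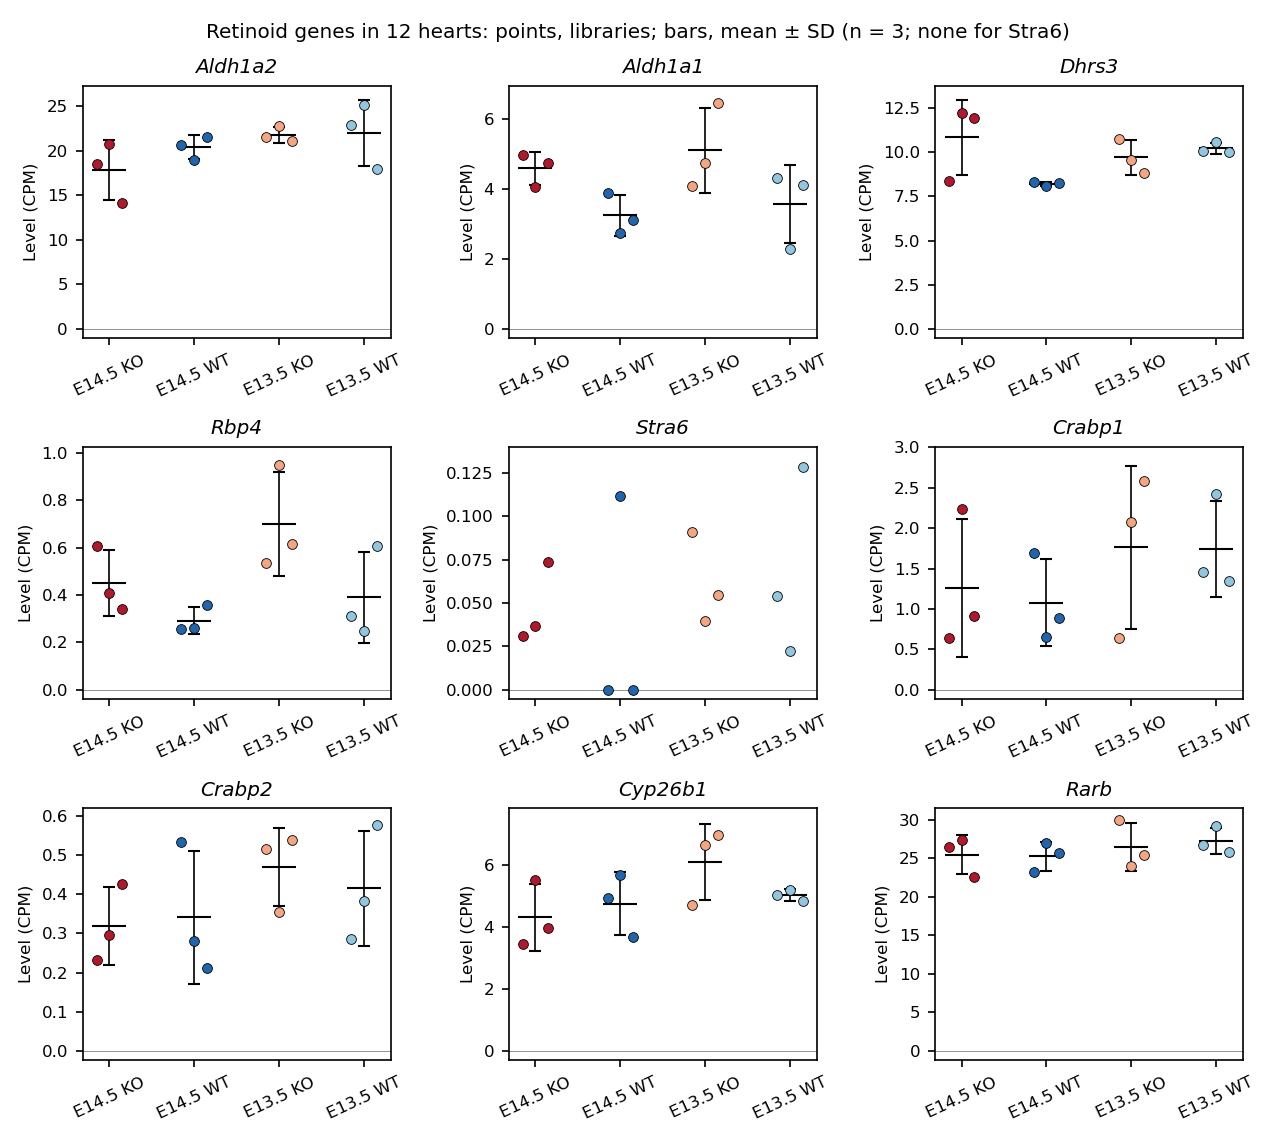
Level of each of the 9 genes in the 12 libraries, in CPM on the vertical axes, by group from left to right: E14.5 KO, E14.5 WT, E13.5 KO and E13.5 WT. Points are libraries, and bars are the mean and SD of 3 libraries, left out for Stra6. Aldh1a1 in the E14.5 KO hearts (4.05 to 4.96 CPM) lies above the E14.5 WT hearts (2.74 to 3.89 CPM), while Rarb is nearly level across the 4 groups.

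Crabp1 and Crabp2 encode the cytosolic carriers of retinoic acid: CRABP2 is known for handing the ligand to its receptors, and CRABP1 for its part in moving it to breakdown. Crabp1, on chr9:54764748-54773110 (plus strand), spread the most of the 8 tested genes between embryos of 1 group, with a within-group coefficient of variation of 52.8%. It had 0.637, 0.915 and 2.23 CPM in E14.5 KO hearts, against 0.653, 0.893 and 1.69 CPM in E14.5 WT hearts. It had 0.636, 2.07 and 2.58 CPM in E13.5 KO hearts, against 1.35, 1.46 and 2.42 CPM in E13.5 WT hearts. All 4 groups overlapped. Averaged, Crabp1 had a log2 fold change of 0.13 ± 0.40 (adjusted p = 0.911, edgeR), and its interval, a fold of 0.596 to 2.01, is wide.

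Crabp2, on chr3:87948666-87953376 (plus strand), had 13 to 98 counts per library. Its level was 0.233, 0.296 and 0.428 CPM in E14.5 KO hearts, against 0.211, 0.280 and 0.534 CPM in E14.5 WT hearts. It was 0.355, 0.515 and 0.538 CPM in E13.5 KO hearts, against 0.286, 0.383 and 0.577 CPM in E13.5 WT hearts. The KO and WT hearts overlapped again, and Crabp2 had an averaged log2 fold change of 0.07 ± 0.29, with an interval of -0.56 to 0.71 (adjusted p = 0.934, edgeR).

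Aldh1a2, on chr9:71215789-71296243 (plus strand), is the epicardial synthesising enzyme. It stood at 14.1, 18.5 and 20.8 CPM in E14.5 KO hearts, against 18.9, 20.6 and 21.6 CPM in E14.5 WT hearts. It stood at 21.1, 21.5 and 22.8 CPM in E13.5 KO hearts, against 17.9, 22.9 and 25.1 CPM in E13.5 WT hearts. The lowest library was E14.5 KO replicate 1, and the KO and WT hearts overlapped at each stage. Averaged, Aldh1a2 had a log2 fold change of -0.10 ± 0.10, a fold of 0.931 with an interval of 0.804 to 1.08 (adjusted p = 0.668, edgeR). By stage it was -0.19 at E14.5 (interval -0.49 to 0.11) and -0.01 at E13.5 (interval -0.31 to 0.29). Without E14.5 KO replicate 1 the E14.5 value was -0.05 and the averaged one -0.03, and without E14.5 KO replicate 4 they were -0.32 and -0.17. Without litter 3 both were -0.01. The averaged value was -0.05 without E13.5 WT replicate 4 and -0.17 without E13.5 WT replicate 2.

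The 16 epicardial markers, which include Wt1 and Tbx18, summed to 348 to 384 CPM in E14.5 KO hearts and 294 to 354 CPM in E14.5 WT hearts, and to 380 to 448 CPM in E13.5 KO hearts and 376 to 410 CPM in E13.5 WT hearts. None was at 0 in any library. For KO against WT at E14.5, 13 of the 16 had a log2 fold change above 0 (median 0.13), as did 9958 of the 20691 tested genes. None of the 16 passed there, and the value of Aldh1a2 was below 0. Averaged over the stages, Krt8 alone of the 16 passed, with 0.72 (adjusted p = 0.0356, edgeR). Over the 12 libraries the r of Aldh1a2 with the summed markers was 0.370 on the log scale.

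Aldh1a1, on chr19:20492715-20643465 (plus strand), encodes a related retinaldehyde dehydrogenase. It had 4.05, 4.74 and 4.96 CPM in E14.5 KO hearts, against 2.74, 3.10 and 3.89 CPM in E14.5 WT hearts. All E14.5 KO hearts were above all E14.5 WT hearts, as were those of 6.81% of all tested genes. It had 4.09, 4.74 and 6.46 CPM in E13.5 KO hearts, against 2.28, 4.12 and 4.31 CPM in E13.5 WT hearts, which overlapped. Over both stages the KO level was 1.42 times that of WT (interval 1.10 to 1.83), a log2 fold change of 0.51 ± 0.17 at an unadjusted p of 0.0104 and an adjusted p of 0.174 (edgeR). By stage it was 0.50 at E14.5 (adjusted p = 0.553, edgeR) and 0.52 at E13.5 (adjusted p = 0.482, edgeR). The E13.5 value was 0.27 without E13.5 WT replicate 4 and 0.30 without E13.5 KO replicate 7.

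Aldh1a1 has a near copy, Aldh1a7, with which it shares 3.06% of its 50-base stretches, so a small part of its reads could be counted for either gene. Aldh1a7 was at 0.423 to 1.24 CPM, and its averaged log2 fold change was 0.10 ± 0.29 (adjusted p = 0.903, edgeR). The 12 macrophage markers summed to 21.9 to 106 CPM in E14.5 KO hearts and 74.8 to 84.8 CPM in E14.5 WT hearts, and 12.7 to 64.5 CPM in E13.5 KO hearts and 92 to 96.2 CPM in E13.5 WT hearts. Their r with Aldh1a1 was -0.357 over the 12 libraries and 0.100 with the group means removed, and their part in the Aldh1a1 difference was not tested.

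Dhrs3, on chr4:144892827-144928209 (plus strand), encodes the reductase that turns retinaldehyde back into retinol, and in mouse it is itself induced by retinoic acid. It had 8.38, 11.95 and 12.2 CPM in E14.5 KO hearts, against 8.065, 8.23 and 8.33 CPM in E14.5 WT hearts. The E14.5 WT hearts were nearly identical, and E14.5 KO replicate 2 was just above them while replicates 1 and 4 were well above. It had 8.825, 9.54 and 10.8 CPM in E13.5 KO hearts, against 9.997, 10.1 and 10.6 CPM in E13.5 WT hearts, which overlapped.

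At E14.5 the log2 fold change of Dhrs3 was 0.40 ± 0.13, a 1.32-fold difference with an interval of 1.09 to 1.61, at an unadjusted p of 0.00896 and an adjusted p of 0.298 (edgeR). At E13.5 it was -0.07 ± 0.13 (adjusted p = 0.884, edgeR). The test of the difference between these effects gave 0.48 ± 0.18 at an unadjusted p of 0.0225 and an adjusted p of 0.997 (edgeR), so the effects were not shown to differ. In litter 2 the KO hearts had 8.38 and 12.2 CPM and the WT hearts 8.065 and 8.33 CPM, and in litter 3 the KO heart had 11.95 CPM and the WT heart 8.23 CPM. Litter as a block left the E14.5 value at 0.40. Without E14.5 KO replicate 2, Dhrs3 passed the test for any difference among the 4 groups (adjusted p = 0.0261, edgeR), against an adjusted p of 0.183 with all libraries.

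Markers of the cell types in which Tie2 is active are given beside Dhrs3. The 10 endocardial markers summed to 602 to 824 CPM in E14.5 KO hearts and 436 to 620 CPM in E14.5 WT hearts, and to 820 to 830 CPM in E13.5 KO hearts and 753 to 798 CPM in E13.5 WT hearts. The 15 endothelial markers summed to 1340 to 1480 CPM in E14.5 KO hearts and 1150 to 1360 CPM in E14.5 WT hearts, and to 1250 to 1270 CPM in E13.5 KO hearts and 1280 to 1360 CPM in E13.5 WT hearts. None of either list was at 0 in any library, and none passed for KO against WT at E14.5. There 8 of the 10 endocardial and 11 of the 15 endothelial markers had a log2 fold change above 0, as did 9958 of the 20691 tested genes. Averaged over the stages, the endothelial Pecam1 fell by 0.47 (adjusted p = 0.000785, edgeR), Cldn5 fell by 0.85 (adjusted p = 0.00602, edgeR) and Eng rose by 0.30 (adjusted p = 0.0193, edgeR), all on the log2 scale. The endocardial Cytl1 fell by 1.79 (adjusted p = 0.00873, edgeR), and at E13.5 Pecam1 alone of both lists passed, lower in KO hearts (-0.62, adjusted p = 0.00809, edgeR). The r of Dhrs3 with the endocardial sum was 0.492 over the 12 libraries and 0.089 with the group means removed, and the markers' part in the Dhrs3 difference was not tested.

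**Figure D2:**
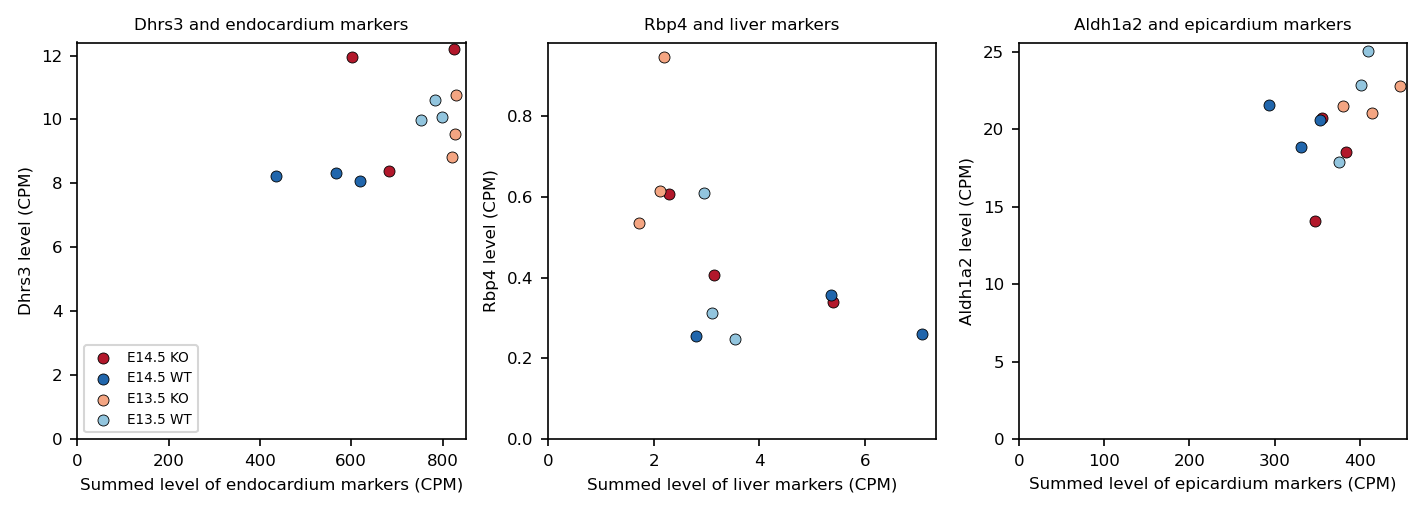
Level of Dhrs3, Rbp4 and Aldh1a2 (CPM, vertical axes) against the summed level of endocardial, liver and epicardial markers in the same library (CPM, horizontal axes). Each point is 1 of 12 libraries, coloured by group. The highest Rbp4 values, up to 0.948 CPM, lie at low liver sums, and the Dhrs3 values of 11.95 and 12.2 CPM in E14.5 KO hearts lie at endocardial sums of 602 and 824 CPM.

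Cyp26b1, on chr6:84571414-84593908 (minus strand), encodes a hydroxylase that clears retinoic acid. It had 3.45, 3.97 and 5.53 CPM in E14.5 KO hearts, against 3.67, 4.93 and 5.68 CPM in E14.5 WT hearts. It had 4.71, 6.65 and 6.99 CPM in E13.5 KO hearts, against 4.85, 5.05 and 5.22 CPM in E13.5 WT hearts. The KO hearts overlapped the WT hearts at both stages. At E14.5 both groups spread wide, with a coefficient of variation of 25.1% in KO and 21.3% in WT hearts. At E13.5 it was 20.2% in KO and 3.62% in WT hearts. The log2 fold change was -0.14 at E14.5 (interval -0.58 to 0.31) and 0.28 at E13.5 (interval -0.16 to 0.72), and their difference of -0.42 ± 0.29 did not pass (adjusted p = 0.997, edgeR).

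Rarb, on chr14:16430839-16819156 (minus strand), encodes the receptor whose promoter is shown above. It stood at 22.6, 26.5 and 27.3 CPM in E14.5 KO hearts, against 23.2, 25.6 and 26.9 CPM in E14.5 WT hearts. It stood at 23.95, 25.45 and 29.9 CPM in E13.5 KO hearts, against 25.8, 26.7 and 29.1 CPM in E13.5 WT hearts. The 4 groups overlapped throughout, and the within-group coefficient of variation of 9.11% was the lowest of the 8 genes. Averaged, Rarb had a log2 fold change of -0.02 ± 0.07 (adjusted p = 0.943, edgeR), and its interval, a fold of 0.890 to 1.10, was the narrowest of the 8.

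The Rarb counts carry a limit of annotation. At chr14:16430839-16435462 Rarb and Top2b, a topoisomerase gene on the opposite strand, run over each other, and 1793 exon bases, 34.1% of the exon length of Rarb, are shared with exons of Top2b. At chr14:16575601-16580459 the antisense gene Gm48162 runs on the opposite strand too and shares 227 exon bases, 4.31% of the exon length of Rarb. The sources used here do not say whether reads were counted by strand, and without strand the reads of Rarb and of these genes cannot be told apart, so the Rarb level is uncertain. Top2b stood at 214 to 264 CPM, and the r between the 2 genes over the 12 libraries was 0.148. Top2b had -0.03 ± 0.05 averaged over the stages (adjusted p = 0.845, edgeR).

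**Figure D3:**
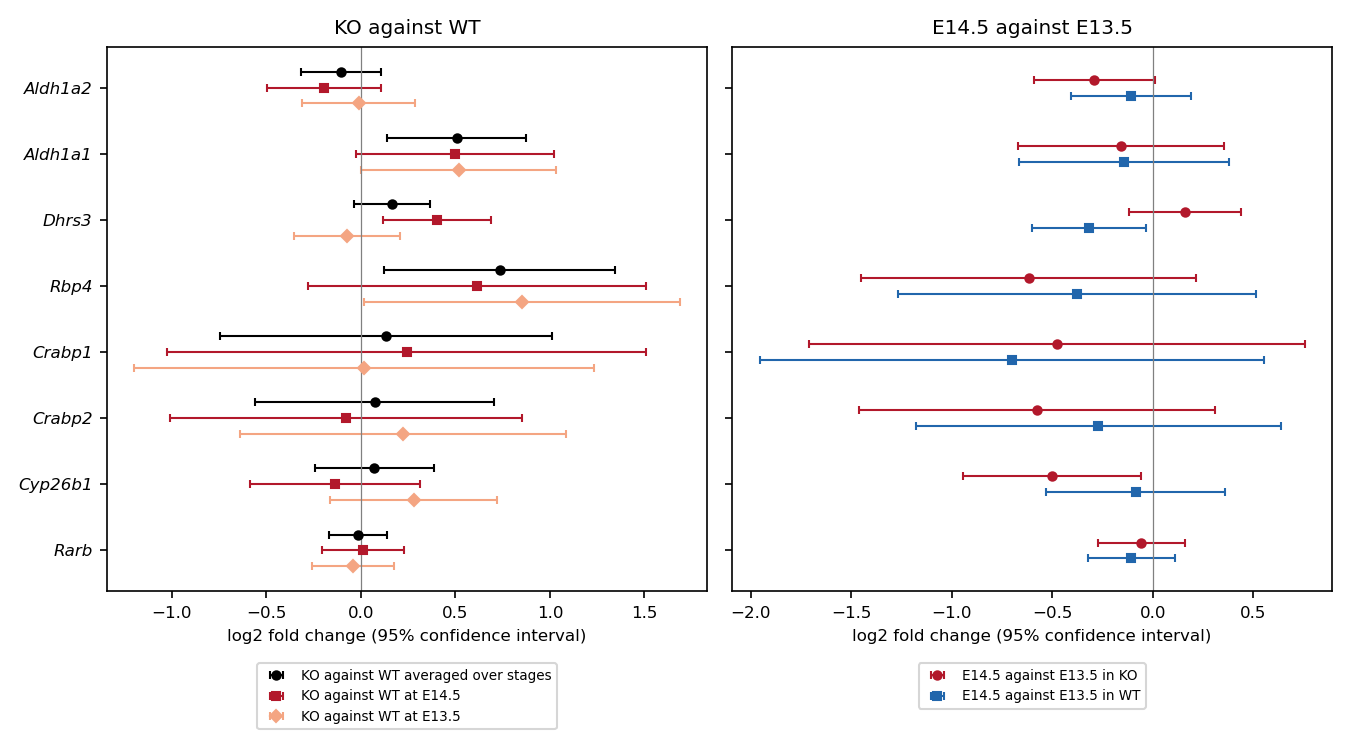
log2 fold changes of the 8 tested genes with 95% confidence intervals, for KO against WT on the left (averaged, at E14.5 and at E13.5) and for E14.5 against E13.5 on the right (in KO and in WT). The averaged intervals of Aldh1a1 (0.14 to 0.87) and Rbp4 (0.12 to 1.34) lie above 0 without passing after adjustment, and Rarb has the narrowest intervals.

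With stage, none of the 8 genes passed either. In WT hearts all 8 had a log2 fold change below 0 for E14.5 against E13.5, as did 10233 of the 20691 tested genes. Their median was -0.21, against 0.00 for all tested genes, with values from -0.70 for Crabp1 to -0.08 for Cyp26b1. In KO hearts 7 of 8 were below 0, as were 10208 of the 20691 tested genes. Their median was -0.38, against 0.00, with values from -0.62 for Rbp4 (-0.36 without E13.5 KO replicate 5) to 0.16 for Dhrs3. Both comparisons rest on litter 1 against litters 2 and 3. The genes are not independent of each other, and the same libraries stand behind every value.

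The lowest adjusted p with stage in WT hearts was that of Dhrs3, with a log2 fold change of -0.32 ± 0.13 at an adjusted p of 0.175 (edgeR). All E14.5 WT hearts were below all E13.5 WT hearts, as were those of 15.5% of all tested genes. In KO hearts Dhrs3 had 0.16 ± 0.13 (adjusted p = 0.546, edgeR). Cyp26b1 had -0.50 ± 0.21 in KO hearts at an unadjusted p of 0.0298 and an adjusted p of 0.188 (edgeR), and -0.08 ± 0.21 in WT hearts (adjusted p = 0.844, edgeR). The KO value of Cyp26b1 was -0.30 without E14.5 KO replicate 2 together with E13.5 KO replicate 5. Aldh1a2 had -0.29 ± 0.14 in KO hearts (adjusted p = 0.264, edgeR), where all E14.5 hearts were below all E13.5 hearts, as were those of 12.8% of all tested genes. The KO value of Aldh1a2 was -0.15 without litter 3. Its value in WT hearts was -0.11 ± 0.14 (adjusted p = 0.676, edgeR).

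To set levels of different genes side by side, CPM was divided by the length of all exons of a gene in kilobases. As means ± SD over the 12 libraries, Aldh1a2 led with 9.04 ± 1.25 CPM per kb, followed by Rarb with 4.96 ± 0.416 and Dhrs3 with 3.33 ± 0.491 CPM per kb. Aldh1a2 was above Rarb and Rarb above Dhrs3 in 12 of 12 libraries, with no overlap of their ranges. Crabp1 with 1.82 ± 0.908, Cyp26b1 with 0.945 ± 0.201 and Aldh1a1 with 0.835 ± 0.223 CPM per kb came next, and each of these overlapped its neighbours in the order. Rbp4 with 0.341 ± 0.157 and Crabp2 with 0.292 ± 0.0979 CPM per kb overlapped too, and Stra6 was last with 0.0092 ± 0.00703 CPM per kb, below Crabp2 in 12 of 12 libraries.

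The order depends in part on which length is used. With the longest transcript in place of all exons, Aldh1a1 stood at 1.75 and Cyp26b1 at 1.13 CPM per kb, and Crabp2 at 0.415 and Rbp4 at 0.394 CPM per kb, so both pairs changed places. By its mean over all libraries Aldh1a2 stayed first at 9.04 CPM per kb, with Rarb at 8.39 CPM per kb, which includes the stretch shared with Top2b. In E14.5 KO hearts the mean of Rarb (8.19 CPM per kb) was above that of Aldh1a2 (7.86 CPM per kb). The clear separation of these genes therefore holds for the length of all exons only.

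**Figure D4:**
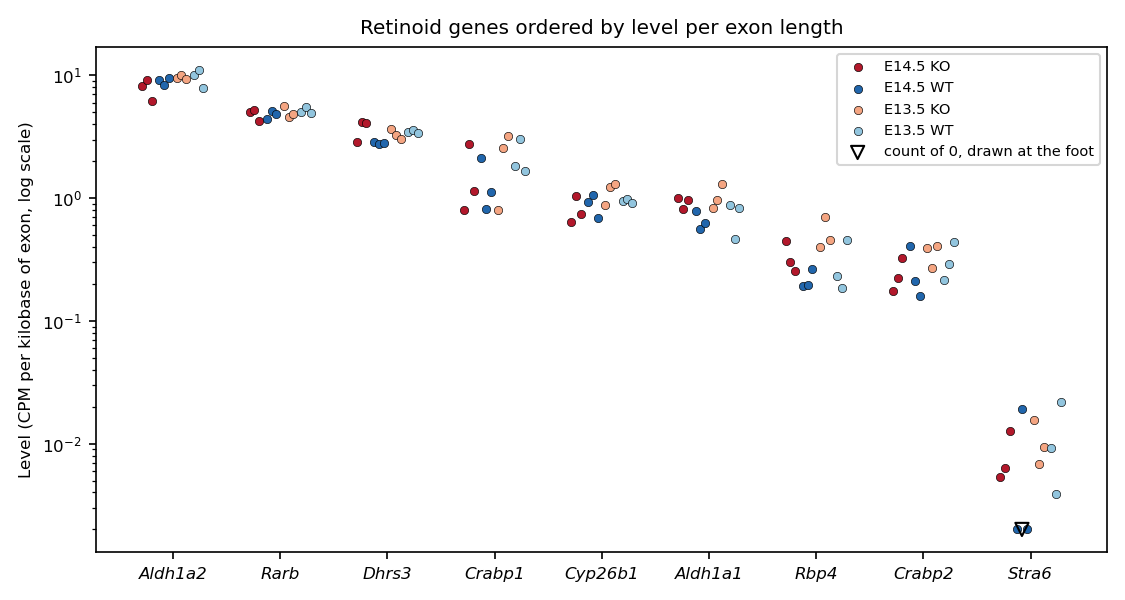
Level of the 9 genes per kilobase of exon in each library (CPM per kb, log axis), ordered by their mean from left to right and coloured by group. An open triangle at the foot marks the 2 E14.5 WT libraries with a Stra6 count of 0. The means run from 9.04 CPM per kb for Aldh1a2 to 0.0092 CPM per kb for Stra6.

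Among the 8 tested genes, the pairs that varied most alike over the 12 libraries were Crabp1 with Cyp26b1 (r = 0.670, and 0.696 with the group means removed) and Aldh1a1 with Rbp4 (r = 0.666, and 0.374 with the group means removed). These are 2 of 28 pairs and come from the same libraries and scaling. Searched over the genes whose mean was 1 CPM or more, the genes most like each member were Rnf170-ps, Zfp354c and Pcdh11x for Aldh1a2 (r of 0.903 to 0.909), Fam167a, Arsa and Tnfrsf23 for Aldh1a1 (0.817 to 0.858), and Cth, Eif5al3-ps and Zfp553 for Rbp4 (0.859 to 0.862). They were Tlr2, Arrdc1 and Erc2 for Crabp1 (0.840 to 0.876), Samd14, Nudt14 and Sf3b5 for Crabp2 (0.880 to 0.908), and Col25a1, Sptlc1 and Nipal4 for Dhrs3 (0.859 to 0.874). For Cyp26b1 they were Pmel, Robo2 and Shisa2 (0.875 to 0.911), and for Rarb Rcbtb2, Zfp932 and Angel2 (0.893 to 0.901). With 12 libraries and so many genes searched, values of this size describe these libraries and no more.

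Rarb and the summed fibroblast and mesenchyme markers had r = -0.764 over the 12 libraries and -0.745 with the group means removed. Cyp26b1 and the summed smooth muscle and pericyte markers had r = -0.387 and -0.821. With the group means removed, these were the strongest of the several pairs of a gene and a marker list looked at. Others were near 0, such as Dhrs3 with the endothelial (0.012) and Crabp2 with the fibroblast and mesenchyme markers (0.116). All pairs come from the same libraries and share their scaling, and what lies behind these values was not tested. The fibroblast and mesenchyme sum was 3280 to 4340 CPM in E14.5 KO hearts and 3300 to 4170 CPM in E14.5 WT hearts, and 3200 to 4100 CPM in E13.5 KO hearts and 3000 to 3980 CPM in E13.5 WT hearts. The smooth muscle and pericyte sum was 1530 to 1980 CPM in E14.5 KO hearts and 1410 to 1800 CPM in E14.5 WT hearts, and 1560 to 2090 CPM in E13.5 KO hearts and 1420 to 1660 CPM in E13.5 WT hearts. The groups overlapped in both sums at each stage. In the smooth muscle and pericyte sum the highest means were those of Acta2 (1100 CPM) and Cnn1 (206 CPM). Rgs5 (42.7 CPM) and Myh11 (1.27 CPM) weigh little in it, so its r follows mainly the highest markers and not the cell types as such.

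The rest of the retinoid system was followed in 5 lists with 94 further genes, 74 of them tested: uptake, transport and storage; retinol and retinaldehyde enzymes; retinoic acid breakdown; receptors and cofactors; and genes that retinoic acid is known to induce. For KO against WT averaged over the stages 2 of 74 rose and none fell, the rates over all genes being 0.831% and 0.585%. At an unadjusted p under 0.05 were 19 of 74, and 10 of the 30 induced genes, where 14.7% of all genes were. At E14.5 1 of 74 rose, where 0.145% of all genes did, and at E13.5 none passed (edgeR), with 14 of 74 at an unadjusted p under 0.05, against 10.3% of all genes. The median log2 fold change of the 74 was -0.07 averaged over the stages, against 0.00 over all genes.

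Fabp5, on chr3:10012548-10016607 (plus strand), was the gene that rose in both. It encodes a cytosolic fatty acid binding protein that can also carry retinoic acid, to the nuclear receptor PPARD. It had 249.4, 272 and 327 CPM in E14.5 KO hearts, against 166, 173 and 177 CPM in E14.5 WT hearts. It had 214, 253 and 255 CPM in E13.5 KO hearts, against 182, 187 and 202 CPM in E13.5 WT hearts. All KO hearts were above all WT hearts of their stage, as were those of 6.81% of all tested genes at E14.5. At E13.5 the groups did not overlap for 19.6% of all tested genes in either direction. Averaged, the log2 fold change of Fabp5 was 0.53 ± 0.07 (adjusted p = 0.00314, edgeR). It rose by 0.72 ± 0.10 at E14.5 (adjusted p = 0.0105, edgeR), and its value at E13.5 was 0.34 ± 0.10 (adjusted p = 0.268, edgeR). The E14.5 call was lost without E14.5 WT replicate 7.2 (adjusted p = 0.0726, edgeR) and with only the E14.5 libraries in the fit (adjusted p = 0.105, edgeR).

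Rai14, on chr15:10568969-10714624 (minus strand), was the other gene that rose when averaged. It encodes an actin-associated protein first found as induced by retinoic acid. It had 34.7, 40.5 and 42.7 CPM in E14.5 KO hearts, against 30.7, 31.9 and 33.7 CPM in E14.5 WT hearts, and 45.1, 47.1 and 50.7 CPM in E13.5 KO hearts, against 33.9, 35.3 and 40.1 CPM in E13.5 WT hearts. The averaged rise was 0.34 ± 0.06 on the log2 scale (adjusted p = 0.019, edgeR). The call was lost without E13.5 WT replicate 4 (adjusted p = 0.0697), without E13.5 KO replicate 5 (0.0577), without E14.5 WT replicate 7 (0.0551), and without E14.5 KO replicate 2 together with E13.5 KO replicate 5 (0.117).

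Cyp26a1, whose promoter holds the same kind of repeat as that of Rarb, is a textbook retinoic acid target too. It had 0.109, 0.147 and 0.419 CPM in E14.5 KO hearts, against 0.411, 0.422 and 0.427 CPM in E14.5 WT hearts. It had 0.0909, 0.276 and 0.335 CPM in E13.5 KO hearts, against 0.389, 0.417 and 1.20 CPM in E13.5 WT hearts. The groups overlapped at E14.5 in 1 KO heart and did not overlap at E13.5, as for 19.6% of all tested genes in either direction. It did not pass, with -1.17 ± 0.42 on the log2 scale averaged over the stages (adjusted p = 0.211, edgeR) and 7 to 75 counts per library.

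Of the other genes named here whatever their result, none passed for KO against WT. Rdh10, which makes the first oxidation of retinol in the embryo, had an averaged log2 fold change of -0.05 ± 0.08, and Aldh1a3, the third synthesising enzyme, had 0.16 ± 0.33. Among the receptors, Rara had -0.07 ± 0.05, Rarg 0.15 ± 0.08, Rxra -0.08 ± 0.06, Rxrb -0.05 ± 0.06 and Rxrg -0.14 ± 0.22. Of the 18 receptors and cofactors, 15 had an averaged value below 0, as did 10485 of the 20691 tested genes, with a median of -0.08. None of the 18 passed (edgeR), and 3 were at an unadjusted p under 0.05, where 14.7% of all genes were. Among induced genes, Tgm2, a transglutaminase gene, had 0.17 ± 0.06 (adjusted p = 0.18, edgeR), Meis1 -0.05 ± 0.06 and Meis2 0.13 ± 0.07. Of the 30 tested induced genes, 17 had an averaged value below 0 (median -0.06), as did 10485 of the 20691 tested genes. At E13.5 22 of the 30 were below 0 (median -0.16), as were 10266 of all tested genes. At E14.5 14 of the 30 were below 0 (median 0.01), as were 10733 of all tested genes. Nr2f2, which encodes the venous and atrial factor COUP-TFII, had 0.22 ± 0.07 at E14.5, with 31.8, 32.2 and 32.8 CPM in KO hearts against 26.4, 27.4 and 29.5 CPM in WT hearts. At E13.5 it had -0.20 ± 0.07, with 30.4, 31.5 and 32.9 CPM in KO hearts against 33.6, 37.2 and 38.3 CPM in WT hearts. The difference of these effects, 0.42 ± 0.10, had an adjusted p of 0.997 (edgeR). Hoxb1 had at most 12 counts in a library and was not tested.

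**Figure D5:**
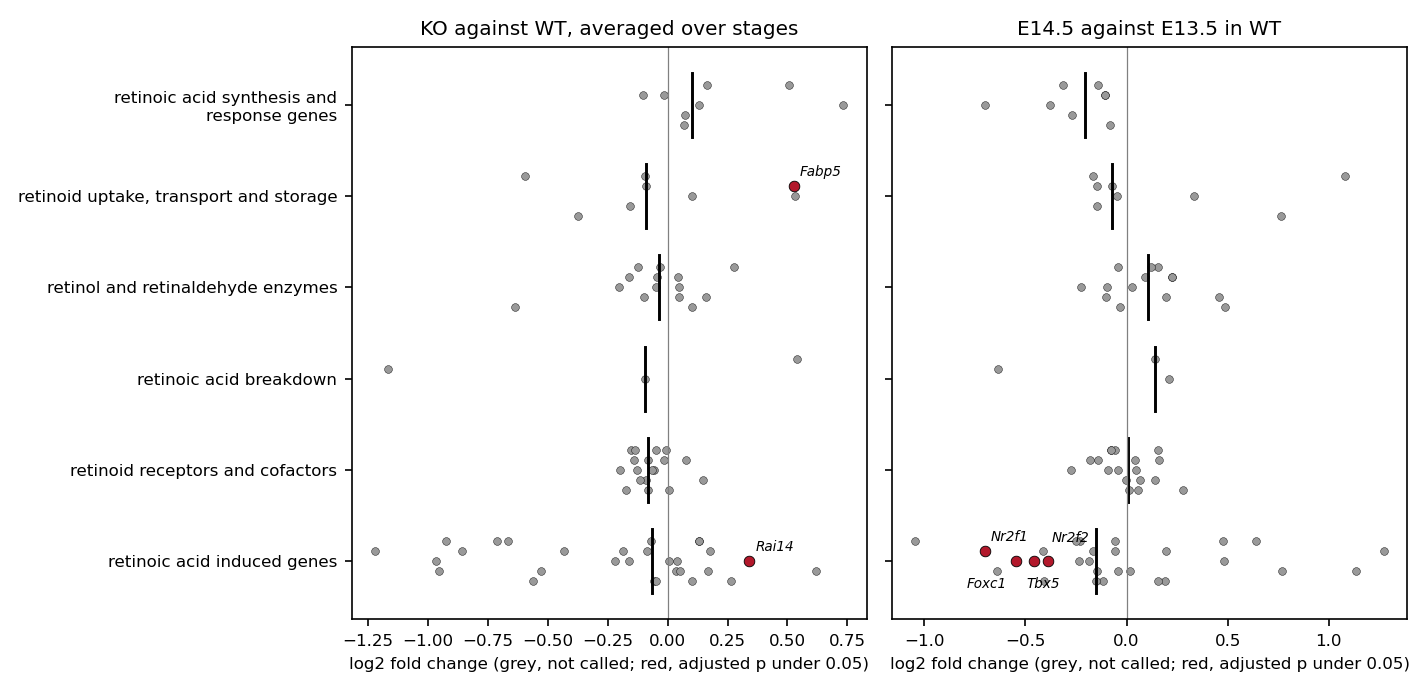
log2 fold change of the 8 tested genes and of the tested genes of 5 wider retinoid lists (rows), for KO against WT averaged over the stages on the left and for E14.5 against E13.5 in WT on the right. Each point is a gene, red and named where the adjusted p was under 0.05, genes not reported here are left out, and vertical bars are the medians of whole lists. Fabp5 (0.53) and Rai14 (0.34) are the calls on the left, and the named calls on the right lie below 0, from -0.70 for Nr2f1 to -0.39 for Nr2f2.

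With stage, some genes of the wider lists passed. In WT hearts 5 of 74 fell at E14.5 against E13.5 and none rose, the rates over all genes being 1.96% and 2.08%. Those reported here are 4 of the induced genes, Nr2f1 (-0.70 ± 0.18), Foxc1 (-0.54 ± 0.12), Tbx5 (-0.46 ± 0.09) and Nr2f2 (-0.39 ± 0.07), at adjusted p-values from 0.022 to 0.0482 (edgeR). They encode transcription factors of heart or vessel development, and each is also known from other inputs than retinoic acid. Each of these 4 calls was lost without litter 3 (adjusted p of 0.0699 to 0.107), and without E14.5 WT replicate 7.2 (0.104 to 0.198), E13.5 WT replicate 1 (0.0881 to 0.118) or E13.5 WT replicate 4 (0.069 to 0.149) alone. Other single libraries took away the call of Foxc1 (E13.5 WT replicate 2, 0.0652) and Tbx5 (E14.5 WT replicate 8, 0.0527). Nr2f1 kept its call only without E14.5 KO replicate 4 or 1 among the single libraries (0.0512 to 0.198 without the other 10), and did not pass without E14.5 KO replicate 2 together with E13.5 KO replicate 5 (0.0731) or without the robust step of the fit (0.0538).

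In KO hearts 3 of the 74 fell and 2 rose, where 1.63% of all genes fell and 2.11% rose. The log2 value of Tbx5 fell by 0.37 (adjusted p = 0.0454, edgeR). Rbp3, a retinoid carrier gene of the retina counted 2 to 49 times per library, fell by 2.30 (adjusted p = 0.0447, edgeR). Rbp7, which encodes a cytosolic retinol carrier, rose by 2.06 ± 0.41 (adjusted p = 0.0248, edgeR), and Dhrs7 rose by 0.41 ± 0.10 (adjusted p = 0.0455, edgeR). In WT hearts the same comparison gave 1.08 for Rbp7 (adjusted p = 0.134), 0.23 for Dhrs7 (0.212) and 0.77 for Rbp3 (0.411, edgeR). For each of these genes the difference between the changes in KO and WT had an adjusted p of 0.997 (edgeR). The KO value of Rbp7 was 1.33 without E14.5 KO replicate 1, and also 1.33 without litter 3, which held that heart. Without E14.5 KO replicate 2 together with E13.5 KO replicate 5, none of the 4 genes just named passed (adjusted p from 0.0937 to 0.161), and none did with Y-linked expression as a covariate (0.0523 to 0.0782). With only the libraries compared Rbp7 (0.1) and Tbx5 (0.0809) did not pass, without litter 3 Rbp3 (0.113) and Tbx5 (0.0795) did not, and with no low-count filter Rbp3 (0.0749) did not. Each was also lost without E14.5 KO replicate 1 (0.0502 to 0.119), E13.5 KO replicate 3 (0.0745 to 0.133), E13.5 KO replicate 5 (0.0787 to 0.0952) or E13.5 KO replicate 7 (0.099 to 0.209) alone. Without E14.5 KO replicate 2 all but Rbp7 were lost (0.0892 to 0.12), without E14.5 KO replicate 4 Rbp3 and Dhrs7 were (0.0641 and 0.0784), and without single WT libraries of either stage calls of Rbp3, Dhrs7 and Tbx5 were lost at 0.0542 to 0.0644. For any difference among the 4 groups 11 of the 74 passed, where 10.1% of all genes did. Ncoa1, a coactivator gene, and Hoxb4, a homeobox gene, were called in that test and in no other, and Hoxb4 had -0.86 ± 0.20 for KO against WT averaged over the stages (adjusted p = 0.0535, edgeR).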

How the data were processed

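Raw counts per gene of 12 whole-heart libraries were used as deposited. The submitters' processing notes name featureCounts, STAR 2.5.3a, DESeq and DESeq2 with build GRCm38, without their roles. Strand setting, treatment of multi-mapping reads and annotation release: not given in the sources used here. Per the labels, libraries were made from whole-heart mRNA with a NEBNext Ultra kit. Counts ranged from 46556032 to 182545647 per library.

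From these counts, edgeR 4.0.16 in R 4.3.3 (filterByExpr on the 4 groups with a minimum count of 10, TMM, robust glmQLFit; 17.1% common biological variation, 8 residual degrees of freedom) fitted 1 mean per group to all 12 libraries. Two-sided glmQLFTest results were corrected by Benjamini-Hochberg over 20691 genes, with a threshold of 0.05. SE is the absolute log2 fold change over the square root of F. The p-values set a difference between groups against the spread between embryos of a group. For stage they do not separate the change from that between litters. The averaged KO comparison of this fit was tested on simulated data, in which only well-counted genes were changed, alike at both stages. That run does not cover changes in genes with low counts or the comparisons between stages. Gene positions and lengths come from GENCODE M21 on GRCm38, matched by symbol, and promoters from RefSeq on GRCm38.p6. Correlations are of log2 CPM with a prior count of 1.

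Named genes were all 9 members, called genes of the wider lists with others fixed by name whatever their result, the 3 most alike genes per member (mean of at least 1 CPM, without predicted or clone-based symbols), and Ino80. Members and lists were chosen with earlier results of these data known. Some genes of the wider lists are not reported here. Alternatives were DESeq2 1.42.0, other scalings, filters, sample sets, litter and Y-linked expression as covariates, a fit without the robust step (chosen after seeing the data), and each library left out in turn.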

Additional observations from a re-analysis of the deposited data

How the results depend on the processing

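The number of the 8 tested genes called stayed at 0 in all 7 comparisons under every alternative run, except that leaving out 1 library at a time gave 0 to 1 for any difference among the 4 groups, where Dhrs3 passed without E14.5 KO replicate 2. The lowest adjusted p of any of the 8 in a comparison of 2 groups was 0.0657 with a library left out and 0.0722 otherwise. Of 426 refits of member values with other settings 416 kept their direction and side of the threshold, and of 504 refits with a library left out 468 did. These refits hold the difference of the KO effects for Dhrs3 and Cyp26b1 only, the highest and lowest of the 8. The rest of these refits turned sign, from values of up to 0.084 in size with other settings and 0.38 with a library left out, and the cause was not tested. Outside them, the difference of the KO effects turned sign with other settings for Rbp4 (-0.25 to 0.10), Aldh1a2 (-0.20 to 0.003) and Rarb (-0.043 to 0.14). The main value of Rbp4 was -0.24. Crabp1 at E13.5 (0.02) was -0.040 with Y-linked expression as a covariate. Without E14.5 KO 2 and E13.5 KO 5, Crabp1 at E13.5 was -0.10, Crabp2 at E14.5 0.095, and Rarb 0.024 at E13.5, -0.019 at E14.5 and 0.0022 averaged. Without litter 3, Crabp2 averaged was -0.19, Rarb averaged 0.033, Rarb with stage in KO 0.017 and Cyp26b1 with stage in WT 0.069.

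With 1 library left out, signs turned for Aldh1a2 at E13.5 (-0.14 to 0.0875), Aldh1a1 with stage in WT (-0.39 to 0.023) and in KO (-0.29 to 0.059), and Rbp4 with stage in WT (-0.62 to 0.043). They turned for Crabp1 averaged (-0.23 to 0.36), at E13.5 (-0.39 to 0.41) and at E14.5 (-0.47 to 0.71), and for Crabp2 averaged (-0.062, with -0.061 without E14.5 KO replicate 1, to 0.30), at E13.5 (-0.0074 to 0.51), at E14.5 (-0.34 to 0.38) and with stage in WT (-0.73 to 0.0165). They also turned for Cyp26b1 averaged (-0.043, with -0.010 without E14.5 WT replicate 7.2, to 0.15), at E14.5 (-0.36 to 0.016) and with stage in WT (-0.24 to 0.071), and for Rarb averaged (-0.065 to 0.024), at E13.5 (-0.15 to 0.0235), at E14.5 (-0.046 to 0.09) and with stage in KO (-0.12 to 0.046). For the difference of the KO effects, signs turned for Aldh1a1 (-0.18 to 0.23), Rbp4 (-0.66 to 0.023) and Crabp1 (-0.48 to 0.69). The same held for Crabp2 (-0.59 to 0.16) and Rarb (-0.013 to 0.16).

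With litter as a replicate block 0 of the 8 were called, and the counts over all genes were 60 at E13.5 (22 without it) and 92 at E14.5 (46 without it). The comparisons between stages were not run with this block, and stage and litter cannot be told apart in this design. With the group means removed, KO and WT embryos of the same litter at E14.5 had a mean r of 0.00478 over 5 pairs. The 4 pairs of different litters had a mean r of -0.006. Removing the group means makes these values nearly cancel, so they are no independent test of a litter effect. The counts over all genes depend on the setting. A count over only 8 genes could hardly move, so its steadiness says little beside them. DESeq2 called 926 averaged (against 293), 348 at E14.5 (46), 310 at E13.5 (22), 2 for the difference of effects (0), 2140 with stage in WT (836), 1822 in KO (774) and 4169 for any difference (2088). Without E14.5 KO 2 and E13.5 KO 5 the counts were 63 averaged, 10 at E14.5, 474 with stage in WT, 130 in KO and 781 for any difference, and without litter 3 they were 71 at E13.5, 95 with stage in WT and 1240 for any difference. With only the libraries compared they were 2 at E14.5, 95 at E13.5 and 289 with stage in KO. With no low-count filter they were 77 at E14.5 and 40 at E13.5, with a filter of 1 CPM in 3 libraries 13 at E13.5, and with Y-linked expression as a covariate 8 at E13.5 and 393 with stage in KO. With 1 library left out they ranged from 125 to 483 averaged, 10 to 107 at E14.5, 2 to 69 at E13.5, 8 to 1081 with stage in WT, 66 to 1076 in KO and 972 to 2515 for any difference.

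Fabp5 averaged stayed called in 22 of 22 alternatives (0.45 to 0.57). Depth limits Rbp4, Crabp2 and Stra6 most, which rest on at most 112, 98 and 10 counts in a library, and 3 embryos a group limit Crabp1.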
